A study of Mus musculus with 9 samples.

Results

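Lcn2, Duox2 and 8 further genes of inducible mucosal defence were followed through the mouse intestinal epithelium: Duoxa2, Nos2, Nox1, Saa1, Saa3, Retnlb, Pigr and Il18. They were chosen by gene symbol for their known function, with earlier results of these data known, so counts of these genes set beside shares of all genes are descriptions. All 10 were found among the 24930 gene symbols of the deposited table. The study sequenced poly(A) RNA of crypt epithelium after one allele of β-catenin had been switched to a gain-of-function form, and asked which regenerative and fetal-like programmes were then active. It has 9 paired-end libraries in 3 groups, each with 1 library at day 8, 1 at day 9 and 1 at day 10 after induction. The controls are labelled only as controls. The group called set A here has titles naming a heterozygous β-catenin allele (Bcathet), and the group called set B has titles naming a heterozygous Cdx2 allele as well (Cdx2het_Bcathet). The library names state the reverse, with CDX2HET_EXON3 for set A and EXON3 for set B, so which set carried the Cdx2 allele cannot be settled from the labels. Both sets carry the β-catenin allele under either reading. The Cre driver, the age of the animals, the bowel segment and the number of animals per library are unknown here. A p-value below thus weighs a difference only against the scatter of these libraries, whose spread may be partly technical. The libraries differ in day too, and 1 of them differs in sex by its transcripts.

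Gut epithelium keeps part of its defence at a steady level and switches another part on when microbes or cytokines reach it. In background knowledge, interleukin-17 acts on these cells through NF-κB and C/EBP factors, and interleukin-22 acts through STAT3. Both routes raise secreted iron-binding and bactericidal proteins and the dual oxidase that releases hydrogen peroxide at the cell surface.

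The values are FPKM, which divide fragments by transcript length and by the size of the library, so levels can be set side by side between genes. Estimated from the smallest values, 1 FPKM corresponded to 16.8 to 19.1 fragments per kilobase of transcript, which makes values well under 1 FPKM a matter of a few fragments. The per-library sums of FPKM were 624923 to 755802. Ctnnb1 itself, which encodes β-catenin, was at 187 to 207 FPKM in the controls and at 211 to 239 FPKM in the mutant libraries, and a gene-level value cannot show which allele was read. Cdx2 was at 108 to 139 FPKM in the controls, at 126 to 144 FPKM in set A and at 178 to 196 FPKM in set B. Its log2 difference from control was 0.16 in set A (limma, adjusted p = 0.479) and 0.64 in set B (limma, adjusted p = 0.0442), where it passed the test. The log2 difference of Cdx2 in set B from set A was 0.48 (limma, unadjusted p = 0.00151, adjusted p = 0.948). Which set carried the Cdx2 allele was not tested by these values. The day-9 library of set B stood apart: on the first principal component, which held 43.5% of the variance, it was at -19.1, beside the controls at -22.7 to -21.6 and away from the other 5 mutant libraries at 2.57 to 30.0. It was also the one library with little Xist, the X-inactivation transcript, at 0.10 FPKM against 27.0 to 39.4 FPKM in the other 8, and with 41.7 FPKM summed over 4 Y-linked genes against at most 0.0470 FPKM. By these transcripts that library was of male tissue and the other 8 of female tissue, so it differed in sex as well. It is called library B9 from here on, and values without it are given beside those of all 9 libraries. It was singled out after these values were seen, in part because it lay beside the controls. Leaving it out therefore favours calls between mutant and control libraries, and fits without it are descriptions. The 10 epithelial markers summed to 5933 to 6679 FPKM in the controls and 5945 to 6852 FPKM in the mutant libraries, so the labelled tissue was present in all 9. In bulk RNA, fewer cells of a type and less RNA per cell cannot be told apart.

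Promoter sequence was matched by symbol for 8 of the 10 genes, from RefSeq on build GRCm38.p6. The authors' processing notes name mm9, so these windows describe the genes and are not joined to any coordinate of the deposited values. Windows of 250 bases ending at the annotated start are shown for Lcn2 (chr2:32387740-32387989, minus strand) and Duoxa2 (chr2:122298650-122298899, plus strand), 2 of the 3 genes that passed the test when library B9 was left out. Capitals mark the motif matches found in the window, written 5′ to 3′ on the strand of the gene.
Lcn2: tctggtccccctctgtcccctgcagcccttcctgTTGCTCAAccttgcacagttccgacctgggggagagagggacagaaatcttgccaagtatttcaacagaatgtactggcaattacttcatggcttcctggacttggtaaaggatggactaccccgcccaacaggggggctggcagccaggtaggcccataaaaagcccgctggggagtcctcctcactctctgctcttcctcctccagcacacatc
Duoxa2: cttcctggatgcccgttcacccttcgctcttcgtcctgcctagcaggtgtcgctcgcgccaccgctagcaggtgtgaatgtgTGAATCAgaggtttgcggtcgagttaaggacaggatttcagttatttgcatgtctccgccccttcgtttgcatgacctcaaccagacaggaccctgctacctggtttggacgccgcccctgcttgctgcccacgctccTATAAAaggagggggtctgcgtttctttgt

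In the Lcn2 window the capitals are a match to the C/EBP motif TTNNGNAA when read on the strand opposite to the gene. The match lies 216 to 209 bases before the start, and 36.9% of 27025 promoter windows of the same length hold one on either strand. In the Duoxa2 window the capitals are a match to the AP-1 motif TGANTCA, 168 to 162 bases before the start, held by 6.87% of windows, and a TATAAA box 30 to 25 bases before it, held by 13.0%. The NF-κB motif, the STAT motif TTCNNNGAA and the TCF/LEF motif CTTTGNN were searched on both strands as well, are held by 7.01%, 7.18% and 48.5% of windows, and had no match in either sequence. The matches shown do not overlap each other. A match describes the letters in the window and says nothing of binding.

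Among the secreted defence proteins, Lcn2 averaged 10.1 times the control level over both sets pooled, with 8.04 times in set A and 12.3 times in set B. It passed the test across all genes with library B9 left out but not with all 9. Lcn2 encodes lipocalin-2, which withholds iron from bacteria by binding their siderophores. Its controls were at 5.16, 5.22 and 8.22 FPKM on days 8, 9 and 10, set A at 62.7, 20.2 and 66.7 FPKM, and set B at 88.9, 4.00 and 135 FPKM. In all, 5 of the 6 mutant libraries lay above every control and library B9 lay below every control. The means were 6.20 ± 1.75 FPKM in the controls (SD, n = 3), 49.9 ± 25.7 in set A (SD, n = 3) and 76.0 ± 66.5 in set B (SD, n = 3), a ratio of 10.1 for both sets over control. The log2 difference of both sets from control was 2.57 ± 0.99 (SE) and did not pass the test across all genes (limma, adjusted p = 0.195). Without library B9 the 5 mutant libraries averaged 74.7 ± 41.9 FPKM (SD, n = 5), and the log2 difference was 3.32 ± 0.42 (limma, adjusted p = 0.0130). Over 15 alternative settings the log2 difference was 2.13 to 3.32, with adjusted p from 0.0130 to 0.433 and a call in 2 of them.

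Neutrophils also carry lipocalin-2, so the neutrophil list was read beside it. Its summed level was 12.0 to 13.3 FPKM in the controls and 13.0 to 19.7 FPKM in the mutant libraries. The granule genes Mpo, Elane and Ctsg, and Stfa1, were at 0 in all 9 libraries. S100a8 and S100a9, which are not on the list, did not exceed 0.61 FPKM. Of the 11 listed genes 3 were tested and 0 passed with all 9 libraries, where 1.16% of all tested genes passed in either direction. Those 3 were Cd177, Ly6g and Cxcr2, with log2 differences of 0.39, 0.37 and -0.096. Cd177 lay above every control in all 6 mutant libraries. Ly6g did so in 5 of the 6, with library B9 below every control. Cxcr2 lay below every control in 4 mutant libraries and above every control in 0. Without library B9 1 of the 3 rose, Cd177 (limma, adjusted p = 0.0227), against 4.65% of all tested genes called higher. The part of neutrophils in the Lcn2 values was not tested.

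Retnlb encodes RELMβ, a bactericidal protein of goblet cells. Its controls were at 2.20, 11.5 and 66.7 FPKM, set A at 77.8, 26.2 and 201 FPKM, and set B at 113, 1.90 and 257 FPKM. The controls alone spanned a wide range, 4 of the 6 mutant libraries lay above all of them and 1 lay below. The log2 difference was 2.05 ± 1.54 (SE; limma, adjusted p = 0.484), and 3.03 ± 1.07 without library B9 (limma, adjusted p = 0.127). It was 0.99 without the day-8 control and 3.19 without the day-10 control. Of 10 goblet cell markers tested, 0 passed with all 9 libraries, where 1.16% of all tested genes passed in either direction. Their median log2 difference was -0.08, and 2 had a positive difference. Without library B9 1 of them, Clca1, fell, against 3.64% of all tested genes called lower.

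Saa1 and Saa3 encode serum amyloid A proteins, acute-phase carriers of retinol and lipid. Saa1 was at 0, 0.119 and 0.122 FPKM in the controls, at 1.5, 0.253 and 4.11 FPKM in set A and at 0.629, 0.361 and 4.77 FPKM in set B. All 6 mutant libraries lay above the controls, 3 of them over 1 FPKM, and the day-10 libraries were the highest of each set. The log2 difference of 1.17 ± 0.55 (SE; limma, adjusted p = 0.269) understates the change of so low a gene, because 1 FPKM was added before the log, and it was 1.36 ± 0.55 without library B9 (limma, adjusted p = 0.166). Saa2, a near-identical neighbour that can share fragments with it, did not exceed 0.134 FPKM, so Saa1 and Saa2 are uncertain as single genes.

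Saa3 had another order over the days. Its controls were at 0.311, 0.295 and 0.759 FPKM, set A at 3.53, 2.48 and 0.822 FPKM, and set B at 1.86, 2.52 and 1.15 FPKM. All 6 mutant libraries lay above the controls, but the day-10 libraries were the lowest of each set. The log2 difference was 1.02 ± 0.29 (SE; limma, adjusted p = 0.110), and 0.94 ± 0.30 without library B9 (limma, adjusted p = 0.0938). The summed level of 10 stromal markers was 6.94 to 8.01 FPKM in the controls, 13.4, 14.7 and 3.95 FPKM over the days of set A and 7.79, 21.2 and 5.34 FPKM over the days of set B. The 11 macrophage markers summed to 4.58 to 4.71 FPKM in the controls and 4.09 to 9.29 FPKM in the mutant libraries. The part of either cell type in the Saa3 values was not tested.

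**Figure D1:**
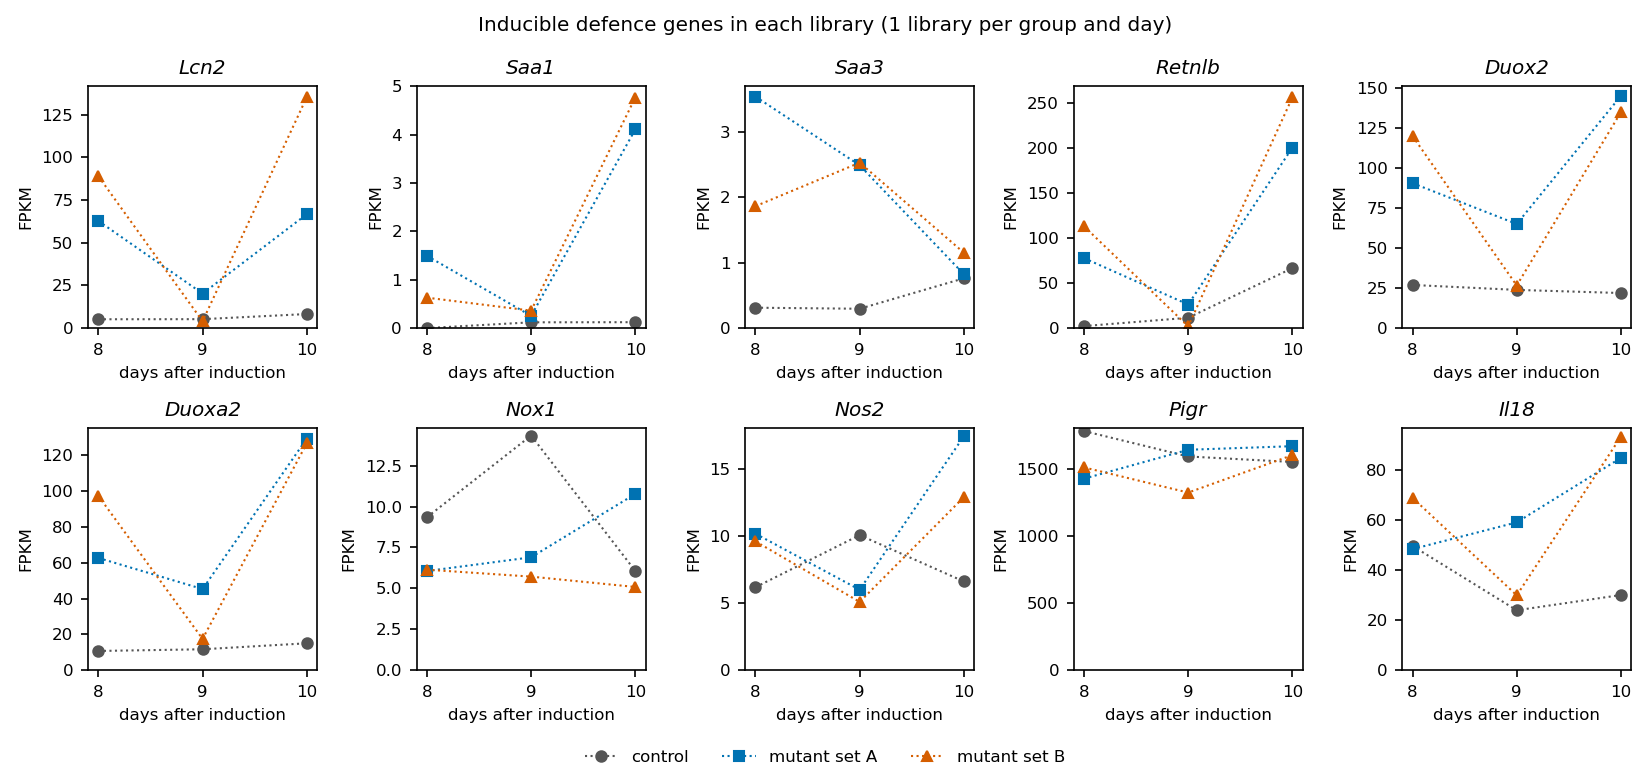
Level of each gene in FPKM (vertical axis, linear from 0, own scale per panel) against days after induction, with 1 point per library: grey circles for control, blue squares for set A and orange triangles for set B. Dotted lines join libraries of one group and are not time courses of one animal. Lcn2 in set B falls from 88.9 FPKM on day 8 to 4.00 on day 9 and stands at 135 on day 10, while Pigr stays between 1326 and 1785 FPKM throughout.

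The plot of levels by library shows the same outline for the dual oxidase pair. Duox2 encodes the dual oxidase that releases hydrogen peroxide at the apical surface, and Duoxa2 encodes the maturation factor that carries it there. The genes neighbour each other on chromosome 2 and are read in opposite directions. Duox2 was at 27.0, 23.9 and 21.9 FPKM in the controls, at 90.6, 65.1 and 145 FPKM in set A and at 120, 26.6 and 135 FPKM in set B. The controls were tight, 5 of the 6 mutant libraries lay above them, and library B9 lay within their range. The means were 24.3 ± 2.54 FPKM in the controls and 97.1 ± 45.4 FPKM in both sets (SD, n = 3 and n = 6), a ratio of 4.00. The log2 difference was 1.77 ± 0.50 (SE; limma, adjusted p = 0.115). Leaving out library B9 gave 2.14 ± 0.24 (limma, adjusted p = 0.00901), and over 15 alternative settings adjusted p ran from 0.00901 to 0.310, with a call in 2.

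Duoxa2 was at 10.7, 11.6 and 15.0 FPKM in the controls, at 62.7, 45.3 and 129 FPKM in set A and at 97.4, 17.4 and 127 FPKM in set B. All 6 mutant libraries lay above all 3 controls, library B9 by the least. The means were 12.4 ± 2.25 FPKM in the controls (SD, n = 3) and 79.8 ± 45.5 FPKM in both sets (SD, n = 6), a ratio of 6.42. The log2 difference was 2.33 ± 0.61 (SE; limma, adjusted p = 0.0979). With library B9 left out it was 2.76 ± 0.33 (limma, adjusted p = 0.0116), and over 15 alternative settings adjusted p ran from 0.0116 to 0.283, with a call in 2.

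The level of Duox2 relative to Duoxa2 was lower in the mutant libraries. The ratio of their FPKM was 2.52, 2.05 and 1.46 in the controls, 1.45, 1.44 and 1.12 over the days of set A, and 1.23, 1.53 and 1.06 over those of set B. The day-10 control lay within the mutant range. The means were 2.01 ± 0.531 in the controls (SD, n = 3) and 1.31 ± 0.192 in both sets (SD, n = 6), with an exact two-sided permutation p of 0.0238. This ratio was chosen after its values were seen, as 1 of 2 computed, and with either the day-8 or the day-9 control left out the exact permutation p was 0.0714. Lcn2 over Duox2, the other ratio, gave an exact two-sided permutation p of 0.167. Over the 9 libraries the log2 levels of Duox2 and Duoxa2 had a correlation of 0.99 and those of Lcn2 and Duox2 one of 0.96, as a description of libraries that share groups and days.

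**Figure D2:**
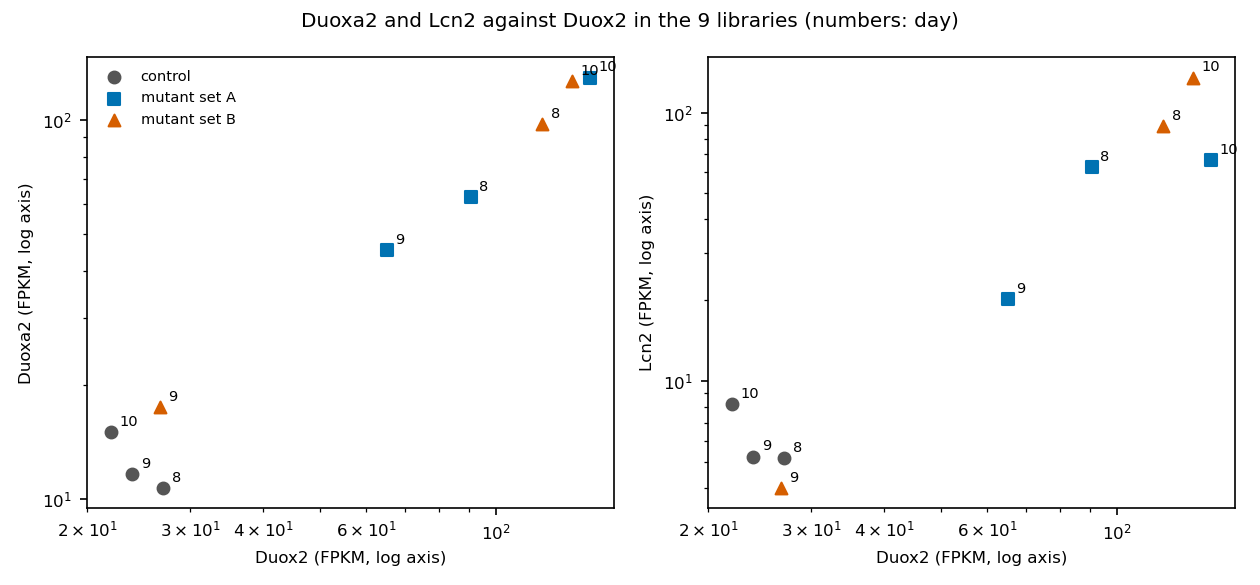
Duoxa2 (left) and Lcn2 (right) against Duox2, both axes in FPKM on log scales, with 1 point per library, the number giving its day; grey circles are controls, blue squares set A and orange triangles set B. Library B9, with Duox2 at 26.6 FPKM, sits with the controls at 21.9 to 27.0 FPKM, and the other 5 mutant libraries lie at 65.1 FPKM or more.

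Nox1, the superoxide-producing oxidase of colonic epithelium, did not share that outline. Its controls were at 9.35, 14.3 and 6.06 FPKM, set A at 6.06, 6.90 and 10.8 FPKM, and set B at 6.14, 5.72 and 5.08 FPKM. The groups overlapped, and the log2 difference was -0.45 ± 0.25 (SE; limma, adjusted p = 0.336), or -0.46 without library B9 (limma, adjusted p = 0.337). It was -0.17 without the day-9 control and -0.73 without the day-10 control. Of 12 listed oxidase partners and paralogs 5 were tested and 0 passed, 4 of them with a positive difference and a median log2 difference of 0.06. Cyba, the membrane subunit that stabilises several oxidases, was at 114 to 142 FPKM in the controls and 110 to 167 FPKM in the mutant libraries, and Duox1, the paralog of Duox2, did not exceed 0.253 FPKM.

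Nos2, the inducible nitric oxide synthase, was at 6.17, 10.0 and 6.60 FPKM in the controls, at 10.2, 5.98 and 17.4 FPKM in set A and at 9.58, 5.07 and 12.9 FPKM in set B. The groups overlapped, with both day-9 mutant libraries below all controls. The log2 difference was 0.30 ± 0.35 (SE; limma, adjusted p = 0.659), or 0.47 without library B9 (limma, adjusted p = 0.391). With 1 library left out it ran from 0.13 without day 10 of set A to 0.50 without the day-9 control. Among 14 tested genes of arginine, nitric oxide and peroxide handling, 1 rose, against 0.513% of all tested genes called higher. That gene, Gch1, makes the tetrahydrobiopterin cofactor of nitric oxide synthases. It was at 5.99, 5.95 and 5.10 FPKM in the controls, at 7.17, 9.02 and 11.6 FPKM in set A and at 11.9, 10.5 and 14.8 FPKM in set B, with a log2 difference of 0.80 (limma, adjusted p = 0.0487). That call held in 2 of the 9 fits that left out 1 library each, with a log2 difference of 0.85 without library B9 (limma, adjusted p = 0.0197). In that fit 4 of the 14 rose and 2 fell, where 8.29% of all tested genes were called in either direction.

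Pigr encodes the receptor that carries IgA and IgM across the epithelium. It was the most abundant of the 10, at 1785, 1595 and 1554 FPKM in the controls, 1430, 1645 and 1672 FPKM in set A and 1514, 1326 and 1605 FPKM in set B. The groups overlapped and the log2 difference was -0.10 ± 0.09 (SE; limma, adjusted p = 0.551), or -0.07 without library B9 (limma, adjusted p = 0.644). Il18 encodes an epithelial cytokine that is released after cleavage by caspase-1. It was at 49.6, 23.9 and 30.0 FPKM in the controls, at 48.3, 59.0 and 84.7 FPKM in set A and at 68.8, 29.8 and 93.2 FPKM in set B. Of the 6 mutant libraries 4 lay above all controls. Its log2 difference was 0.85 ± 0.38 (SE; limma, adjusted p = 0.253), and 1.08 ± 0.28 without library B9 (limma, adjusted p = 0.0618).

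Counted together, 0 of the 10 genes passed the limma test for both sets against control with all 9 libraries, where 1.16% of 12097 tested genes passed in either direction, with 62 genes higher and 78 genes lower. Rescaling the libraries to equal totals turned that split to 133 higher and 36 lower. Saa1 and Saa3 reached 1 FPKM in mutant libraries alone, so they entered the test through the group in which they were high. At an unadjusted p under 0.05, 3 of the other 8 passed, against 21.0% of all tested genes. Without library B9, Lcn2, Duox2 and Duoxa2 passed, 3 of 10, all higher, against 4.65% of 12000 genes called higher and 8.29% called in either direction. Of those 8 genes, 1, Duoxa2, had all 6 mutant libraries above all controls, against 5.19% of tested genes. With library B9 left aside that held for 3 of the 8, Lcn2 and Duox2 added, against 9.90%. In exact two-sided permutation tests of 3 against 6 libraries, which cannot go below 0.0119, the unadjusted p was 0.0357 for Duoxa2, 0.0476 for Duox2 and 0.0833 for Lcn2. The plot of differences with their standard errors shows both fits.

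**Figure D3:**
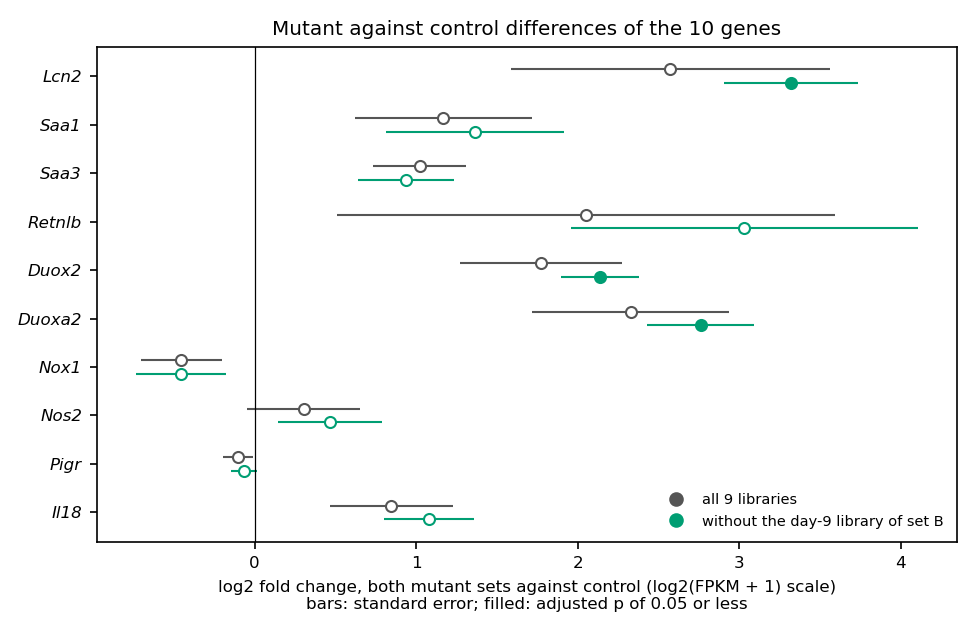
Log2 difference of both mutant sets from control for each of the 10 genes, on the log2(FPKM + 1) scale, with bars of 1 standard error; grey is the fit of all 9 libraries, green the fit without library B9, and filled points passed an adjusted p of 0.05. The filled points are Lcn2 at 3.32, Duox2 at 2.14 and Duoxa2 at 2.76, all in green.

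Each set was also compared with the same 3 controls, so these comparisons share them. For set A 0 of the 10 passed with all 9 libraries, where 0.215% of tested genes passed, and 3 of the 8 genes that reached 1 FPKM in a control had an unadjusted p under 0.05 against 16.7%. For set B the count was 0 of 10 against 0.628%, and 2 of those 8 had an unadjusted p under 0.05 against 16.5%. The split of genes called was 15 higher and 11 lower in set A, or 20 and 8 after rescaling to equal totals, and 47 higher and 29 lower in set B, or 48 and 15. Without library B9, 2 of 10 passed in set A against 1.05%, Duox2 at 1.93 (limma, adjusted p = 0.0330) and Duoxa2 at 2.45 (limma, adjusted p = 0.0426). In set B, then left with 2 libraries, 3 of 10 passed against 4.03%: Lcn2 at 3.97 (limma, adjusted p = 0.0182), Duox2 at 2.35 (limma, adjusted p = 0.0173) and Duoxa2 at 3.07 (limma, adjusted p = 0.0183). Set A is fitted with the spread of all groups, so that library enters its p as well.

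Between the sets, 0 of the 10 genes passed. The log2 difference of set B from set A ran from -0.78 ± 1.78 (SE) for Retnlb to -0.10 ± 0.11 (SE) for Pigr. Among all tested genes 0 passed, a share of 0%, and 3.11% had an unadjusted p under 0.05, and of the 10 genes 0 did. The standard error was 1.14 for Lcn2 and 0.58 for Duox2. Leaving out library B9 turned the sign for 7 of the 10, Lcn2, Saa1, Retnlb, Duox2, Duoxa2, Nos2 and Il18, with the difference for Lcn2 at 1.30 ± 0.52 (SE; limma, adjusted p = 0.981).

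Within both sets 6 of the 10 genes shared an order by day. Lcn2, Saa1, Retnlb, Duox2, Duoxa2 and Nos2 were lowest on day 9 and highest on day 10 in set A and in set B, against 8.98% of tested genes. Saa1 among them entered the test through the mutant libraries, in which it was high. Saa3, Nox1, Pigr and Il18 did not follow that order in both sets. The order was noticed in the values and has 1 library per day and set, and in set B it includes the library that stands apart. T cell and intraepithelial lymphocyte markers, 12 genes, were lowest on day 10 in both sets and in the controls. They summed to 63.0, 68.8 and 19.5 FPKM in set A, to 47.4, 64.0 and 19.7 FPKM in set B and to 65.1, 83.2 and 49.4 FPKM in the controls. Their part in the day order was not tested.

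Lists of the pathways around these genes were read for company. In the IL-22 and STAT3 list 10 of 13 genes were tested, 1 rose, 9 had a positive difference and the median log2 difference was 0.59. Over all tested genes the median was -0.0017 and 0.513% were called higher. The gene that rose was Bcl3, an NF-κB cofactor induced by STAT3, at 60.4, 70.0 and 51.2 FPKM in the controls, 98.3, 95.6 and 98.4 FPKM in set A and 97.0, 75.2 and 91.3 FPKM in set B. Its log2 difference was 0.61 (limma, adjusted p = 0.0474), a call that held in 1 of 9 fits with 1 library left out. Without library B9 it was 0.66 (limma, adjusted p = 0.0135), and 6 of the 10 tested rose, against 4.65% of all tested genes.

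Socs3, the feedback inhibitor of STAT3 signalling, was at 14.3, 8.15 and 12.4 FPKM in the controls, at 78.7, 66.1 and 125 FPKM in set A and at 74.7, 14.5 and 107 FPKM in set B. All 6 mutant libraries lay above the controls, library B9 only just. Its log2 difference was 2.43 (limma, adjusted p = 0.0815), and 2.86 without that library (limma, adjusted p = 0.00730). Stat3 itself had a log2 difference of 0.67 (limma, adjusted p = 0.0914), and 0.78 without that library (limma, adjusted p = 0.0140). Fut2, the fucosyltransferase that interleukin-22 induces in gut epithelium, was at 1.47 to 2.92 FPKM in the controls and at 2.00 to 72.7 FPKM in the mutant libraries. Socs3, Stat3 and Fut2 were named after their values were seen.

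**Figure D4:**
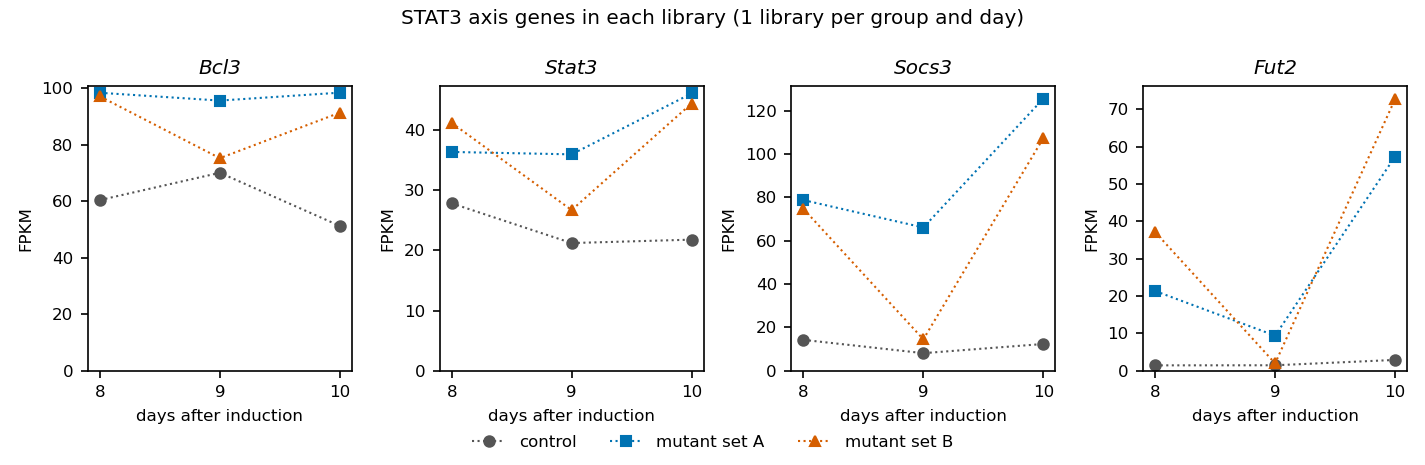
Level of Bcl3, Stat3, Socs3 and Fut2 in FPKM (vertical axis, linear from 0, own scale per panel) against days after induction, 1 point per library: grey circles for control, blue squares for set A and orange triangles for set B; dotted lines join libraries of one group. Socs3 is at 66.1 to 125 FPKM in set A, above the controls at 8.15 to 14.3 FPKM.

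In the IL-17 and NF-κB list 12 of 16 genes were tested, 0 passed, 8 had a positive difference and the median log2 difference was 0.21. Without library B9, 5 of the 12 rose, against 4.65% of all tested genes. Steap4, among those 5, was at 0.341 to 0.546 FPKM in the controls. It reached 1 FPKM in mutant libraries alone, so it entered the test through the group in which it was high. Icam1, an adhesion molecule for leukocytes, had a log2 difference of 1.14 (limma, adjusted p = 0.0785), and 1.33 without library B9 (limma, adjusted p = 0.00523). Cebpd, the C/EBPδ transcription factor, had one of 0.95 (limma, adjusted p = 0.137), and 1.18 without it (limma, adjusted p = 0.00347). Of 25 tested genes of Toll-like receptor and NF-κB signalling 0 passed, 19 had a positive difference and the median was 0.18, with 7 higher and 1 lower without that library, where 8.29% of all tested genes were called in either direction.

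Among 17 tested inflammasome and IL-1 family genes 0 passed, 14 had a positive difference and the median log2 difference was 0.23, and without library B9 3 rose and 1 fell, beside 8.29% of all tested genes. Casp1, which cleaves pro-interleukin-18, was at 73.0 to 96.2 FPKM over all 9 libraries. Il18bp, the secreted inhibitor of interleukin-18, had a log2 difference of 1.58 (limma, adjusted p = 0.182), and 1.94 without library B9 (limma, adjusted p = 0.0410). Of 10 tested other antimicrobial effectors 0 passed, 8 had a positive difference and the median was 0.59, and without library B9 4 rose, beside 4.65% of all tested genes. Ltf, which encodes the iron-binding protein lactoferrin, had a log2 difference of 1.33 (limma, adjusted p = 0.154), and 1.66 without that library (limma, adjusted p = 0.00744). Ltf was at 0.552 to 0.995 FPKM in the controls and reached 1 FPKM in mutant libraries alone, so it too entered the test through the group in which it was high.

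**Figure D5:**
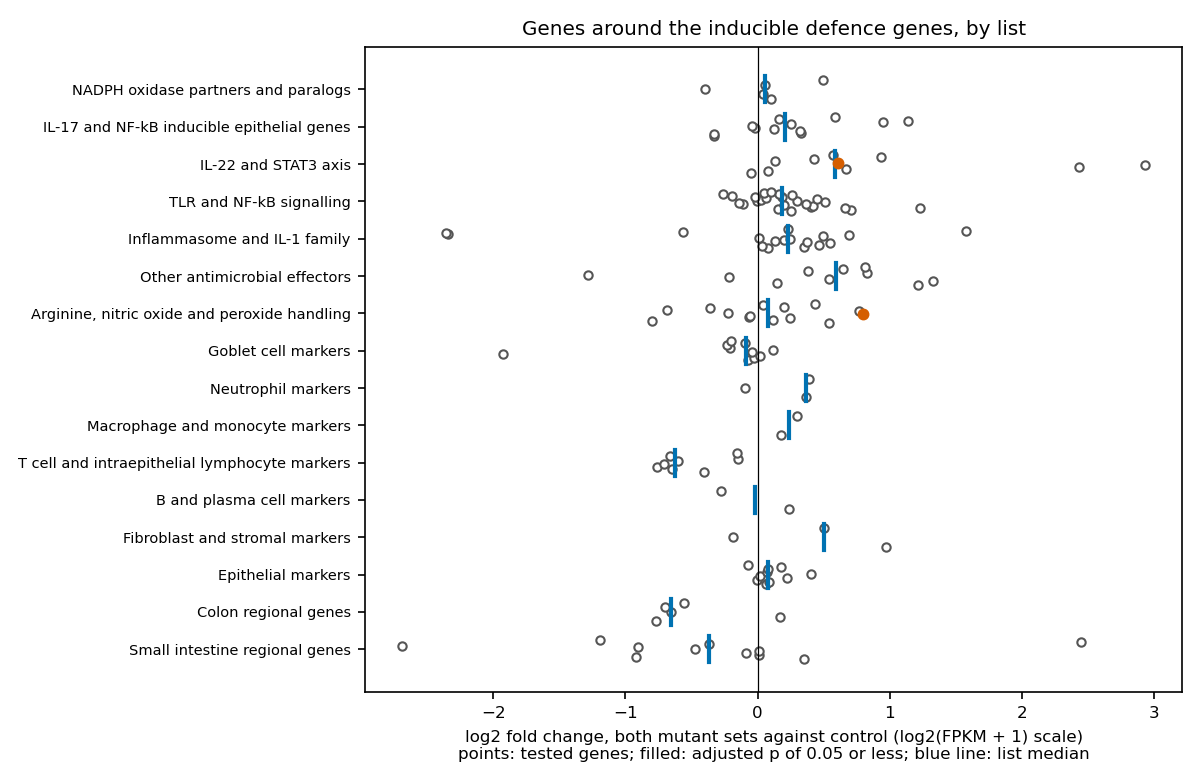
Log2 difference of both mutant sets from control (horizontal axis, log2(FPKM + 1) scale) for every tested gene of each list, 1 point per gene, with a blue line at the list median and filled points at an adjusted p of 0.05 or less. The filled points are Bcl3 at 0.61 and Gch1 at 0.80.

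The genes most like Lcn2 over the 9 libraries, by the correlation of log2 levels among 9884 candidates, were Lrg1 at 0.983, Fut2 and Ociad1 at 0.981, Ctnnal1 at 0.976 and Acer3 at 0.975. Lrg1, which encodes a secreted leucine-rich glycoprotein, was at 0.754, 0.291 and 2.99 FPKM in the controls, at 73.0, 27.0 and 306 FPKM in set A and at 228, 1.43 and 536 FPKM in set B. It repeated the low day-9 value of set B that Lcn2 had. Those most like Duox2 were Cdk5rap3 at 0.991, Esyt1 at 0.989, Alpk1 at 0.987, and Mgat4c and Cldn2 at 0.983. Alpk1, a kinase that senses a bacterial sugar, was at 3.98 to 5.04 FPKM in the controls and at 5.74 to 22.7 FPKM in the mutant libraries.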

How the data were processed

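Poly(A) RNA libraries were read as paired ends, per the labels' protocols. The authors deposited 1 table of FPKM values, already normalized, for all 9 libraries. No label names the unit, which was read from the values. Per the submitters' processing notes the tools were kallisto (version 0.46.1) and DESeq2 (version 1.40.1), the build was mm9, and no roles are stated. Fragment counts were not used here, so no count model was run and no counting interval is given.

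From these values log2(FPKM + 1) was computed, genes at 1 FPKM or more in at least 3 libraries were kept, and limma 3.58.1 in R 4.3.3 was fitted to the 3 groups together, with a mean-variance trend, robust moderation and Benjamini-Hochberg adjustment over all genes tested. Genes were called at an adjusted p of 0.05. A fold change on this scale understates the change of low genes. The steps were tested on simulated data with independent noise for each gene and library. A library that stands apart, as B9 does, was not simulated.

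The 10 genes and the surrounding lists were chosen with earlier results of these data known. The rule names from each list up to 3 genes that passed, or else the 2 with the largest absolute log2 difference, and the 5 genes most like Lcn2 and like Duox2. Genes outside it, among them Casp1, Il18bp, Cyba, Socs3, Stat3 and Fut2 in the STAT3 list, were chosen after their values were seen. Alternatives were another pseudocount, filters, scaling, library weights, the compared groups alone, a block for day and each library left out.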

Additional observations from a re-analysis of the deposited data

Results flagged for a closer look

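Nox1 in the day-10 library of set A was at 10.8 FPKM, and the next of the 6 mutant libraries was at 6.90 FPKM. The gap was 0.681 of the range of the 6, above the critical value of Dixon's test for 6 values. One such test was run for each of the 10 genes, and chance gives about 1 in 20.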

How the results depend on the processing

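For both sets against control 140 genes passed with all 9 libraries and 17 to 995 with 1 library left out: 36, 18 and 17 without the control of day 8, 9 or 10, 70 and 55 without day 9 or 10 of set A, and 45, 995 and 51 without day 8, 9 or 10 of set B. Of the 10 genes 0 to 3 passed in those fits. No filter on low values left 80 genes, and library weights gave 1438 genes and 4 of the 10. Rescaling to equal totals gave 169 genes. In set A 26 genes passed, 44 with weights and 3 to 126 with 1 library left out, and of the 10 genes 0 to 2. In set B 76 passed, 48 with the compared groups alone, 2035 with weights and 18 to 483 with 1 library left out, with 5 of the 10 under weights and 0 to 3 in the leave-outs. Between the sets 0 passed, 2 with a pseudocount of 0.1 FPKM, 3 with weights and 0 to 2 with 1 library left out.

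Some log2 differences changed sign. In set A Pigr was at 0.00754 after rescaling and at -0.10 to 0.015 with 1 library left out, and Nox1 at -0.54 to 0.024. In set B Nos2 was at -0.074 to 0.52 in the leave-outs. For set B minus set A, weights gave 0.99 for Lcn2, 0.78 for Retnlb, 0.36 for Duox2, 0.52 for Duoxa2, 0.073 for Nos2 and 0.22 for Il18. With 1 library left out that difference was -1.09 to 1.30 for Lcn2, -0.61 to 0.28 for Saa1, -0.51 to 0.15 for Saa3, -2.05 to 1.18 for Retnlb, -0.73 to 0.42 for Duox2, -0.77 to 0.62 for Duoxa2, -0.57 to 0.13 for Nos2 and -0.45 to 0.36 for Il18. The cause of these shifts was not tested.

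With the day as a replicate block 97 genes passed for both sets, 16 for set A, 63 for set B and 0 between the sets, and 0 of the 10 genes. Same-day deviations had correlations of -0.18 to 0.03 between control and set A, -0.24 to 0.07 between control and set B and -0.02 to 0.62 between the sets. These did not all exceed 0.1, the level set for treating the days as pairs. With 1 library per group and day, day and library cannot be told apart.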

Other observations

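A few genes of neighbouring lists had lower values in the mutant libraries and did not pass the test with all 9 libraries. Gsdmc4, a gasdermin of gut epithelium, was at 26.5, 99.7 and 239 FPKM in the controls, at 31.3, 26.9 and 7.88 FPKM in set A and at 15.9, 25.2 and 5.88 FPKM in set B. Its log2 difference was -2.36 (limma, adjusted p = 0.143), or -2.57 without library B9 (limma, adjusted p = 0.0930). That of its paralog Gsdmc2 was -2.34 (limma, adjusted p = 0.169), or -2.54 without it (limma, adjusted p = 0.125). Clca1, a protease of goblet cell mucus, had a log2 difference of -1.92 (limma, adjusted p = 0.0827), and it fell by 2.16 without library B9 (limma, adjusted p = 0.0283). Itln1, a lectin that binds microbial sugars, had one of -1.28 (limma, adjusted p = 0.0720), or -1.23 without it (limma, adjusted p = 0.0545).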
